A study of Mus musculus with 33 samples.

Results

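The 10 genes described here, which serve as readouts of endothelial to mesenchymal transition (EndMT), were followed in endothelial cells of mouse embryos, fetuses and adult livers, with and without added RUNX1. They were taken by name from the expression table, which lists 25239 genes, and all 10 of 10 were found and passed the filter on low values that 12546 genes passed. The 10 genes are the transcription factors Snai1, Snai2, Twist1, Zeb1 and Zeb2, the adhesion molecule Cdh2, the contractile genes Acta2 and Tagln, the receptor Pdgfrb and the matrix gene Dcn. RNA-seq covered 13 libraries in 7 groups, with 1 library in E13.5 Ctrl and 2 in each other group. At E9.5, whole embryos of a C57BL/6J-129Sv/J x B6C3F1 background gave Ctrl (CKI/+) and 1Runx1 (Cre; CKI/+) cells, from superovulated females. At E13.5, whole fetuses of a C57BL/6J-129Sv/J background gave Ctrl (CKI/CKI or CKI/+), 1Runx1 (Cre; CKI/+) and 2Runx1 (Cre; CKI/CKI) cells. Livers of adults aged 4 to 6 weeks, of the same background, gave Ctrl (CKI/CKI or CKI/+) and 2Runx1 (Cre; CKI/CKI) cells. CKI is the labels' name for the allele that carries the Runx1 copies, so every Ctrl group carries it too, and Cre was named only in the Runx1 groups, where its presence and the added copies cannot be told apart. All groups received 2 mg tamoxifen, 24 hours before harvest at E9.5 and E13.5, and by gavage at an interval not stated for the liver. The promoter that drives Cre and the number of animals behind a library are not given in the sources used here, so p-values here reflect the spread from library to library, which may be technical. Cells were sorted as CD41-CD45-Ter119-CD31+VEC+cKIT lo/+, where VEC is VE-cadherin, a gate meant to select endothelium and exclude blood cells.

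In EndMT, endothelial cells loosen their junctions and take on features of mesenchymal cells, as they do when heart valve cushions form. Ligands of the TGFβ and BMP families act through type I and type II receptors and SMAD proteins, and they induce zinc finger and helix-loop-helix factors (SNAI1, SNAI2, ZEB1, ZEB2 and TWIST1) that repress junction genes and favour contractile and matrix genes. Several of the same genes are also expressed by cells that lie against endothelium. Mural cells (pericytes and smooth muscle cells) carry PDGFRβ, α-smooth muscle actin (Acta2) and transgelin (Tagln), and hepatic stellate cells, the pericytes of liver sinusoids, and fibroblasts make decorin (Dcn).

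Levels are given in RPKM, read counts that the authors adjusted for how long a gene is and how deeply a library was sequenced, which allows levels of different genes to be compared per length. Libraries held 37754246 to 44540403 reads, recovered from the values. Differences are on the log2(RPKM + 1) scale, with the standard error after ±, and understate changes of low genes. A gene was called at an adjusted p under 0.05, from limma with Benjamini-Hochberg adjustment over all 12546 genes. Runx1 followed the labels: it was 0.904 to 1.53 RPKM in the 5 Ctrl libraries and 14.9 to 78.4 RPKM in the 8 libraries of the Runx1 groups. All 16 endothelial markers checked were at 1 RPKM or more in every library. RNA of other cells was present too. In liver, 10 macrophage and Kupffer cell markers summed to 172 to 183 RPKM and 10 hepatocyte markers to 155 to 173. Over 12 mural cell markers, summed levels were 17.3 to 22.7 RPKM in E13.5 Ctrl and 2Runx1. By this sum 1 library stood apart, E13.5 1Runx1 library 1, at 45.3 RPKM against 16.6 in its replicate. The 10 genes and other named genes that were called, or had an unadjusted p under 0.05, in a comparison of E13.5 1Runx1 are therefore also given without it. The 1Runx1 group then has 1 library, and its spread is taken from the other groups. Libraries 1 and 2 of E13.5 2Runx1 were unlike in other marker sums. Fibroblast markers summed to 172 and 129 RPKM, cardiomyocyte to 28.8 and 15.4, neural to 50.8 and 36.5, and hepatocyte to 190 and 275. Macrophage markers were alike there, at 17.1 and 17.2. In these sorted bulk samples, a change in the number of cells of a type and a change in RNA per cell cannot be told apart.

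**Figure D1:**
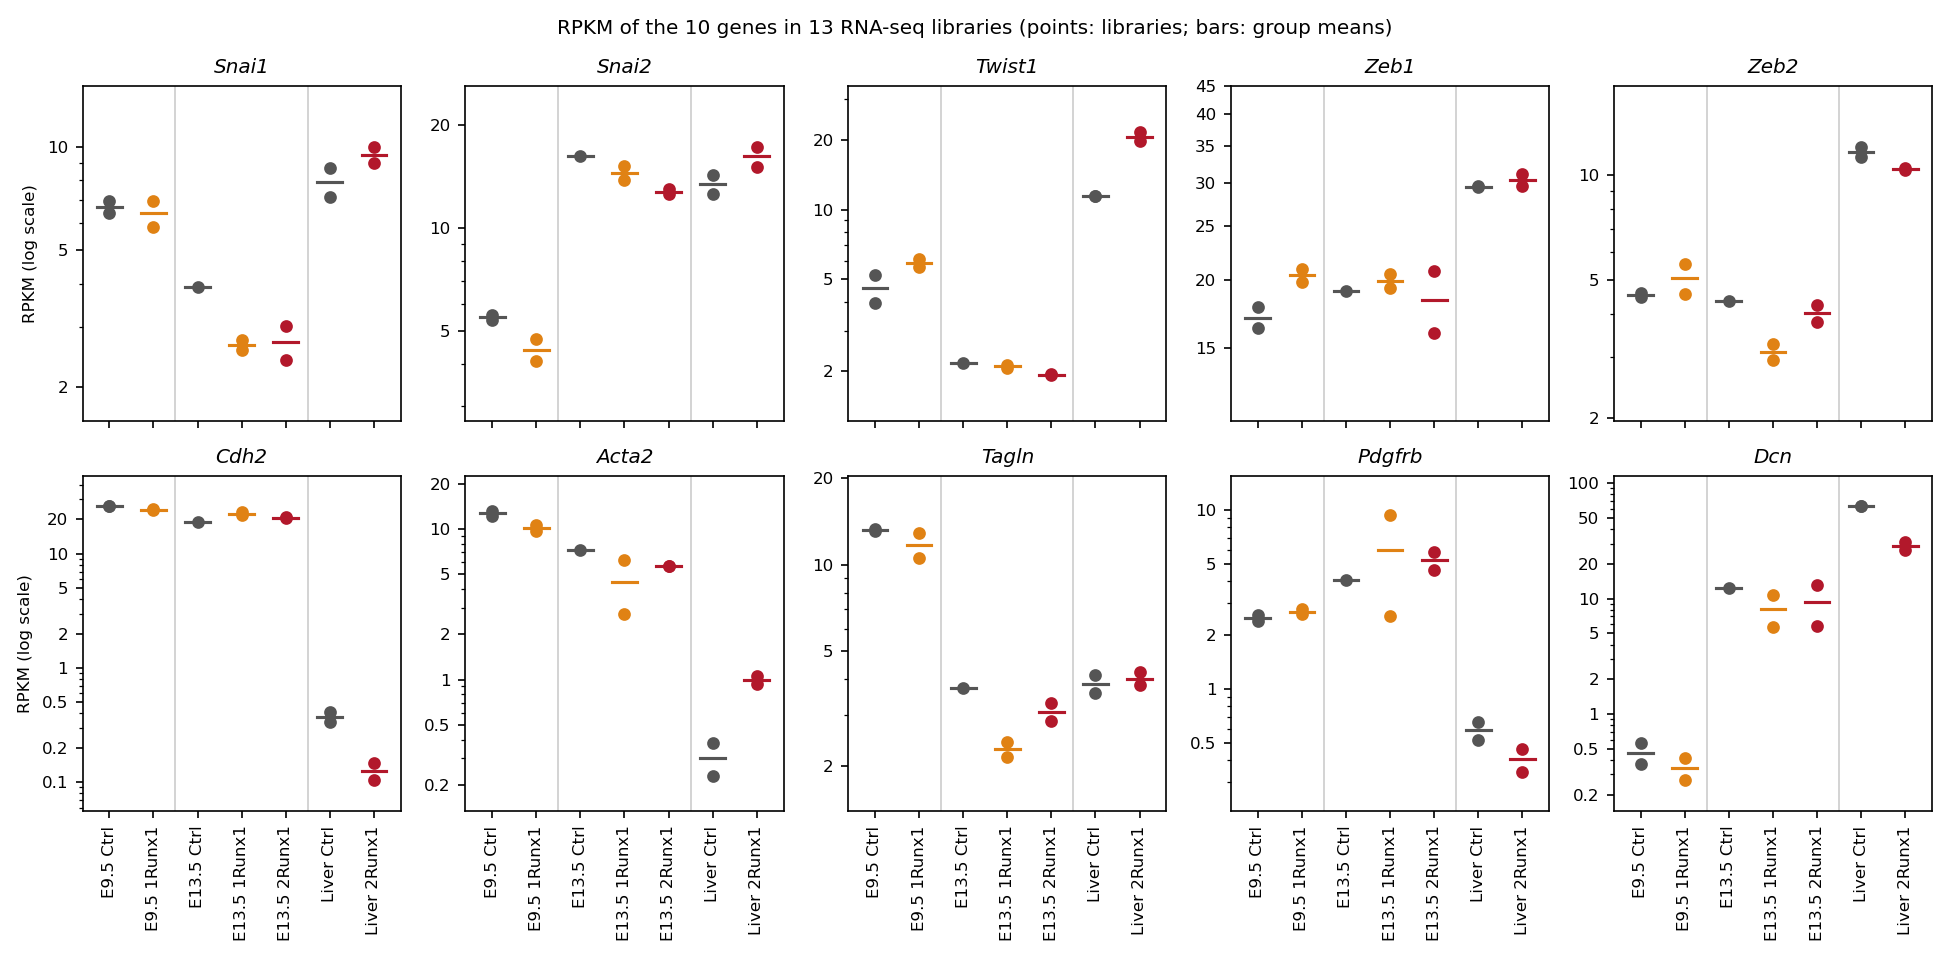
Level of each gene (RPKM, log axis) in the 13 libraries, grouped by stage and genotype along the horizontal axis, with points for libraries and bars for group means. Cdh2 and Acta2 drop between the fetus and the liver, Dcn climbs from under 0.6 RPKM at E9.5 to 62.8 and 63.2 in liver Ctrl, and Twist1 is highest in liver 2Runx1.

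Snai1, the zinc finger repressor named Snail, had its lowest levels in the fetus and its highest in the liver. At E9.5 it was at 6.42 and 6.97 RPKM in Ctrl and at 6.96 and 5.84 in 1Runx1. At E13.5 it was at 3.91 in Ctrl, 2.74 and 2.56 in 1Runx1 and 3.01 and 2.39 in 2Runx1. In liver it was at 7.12 and 8.67 in Ctrl and 8.95 and 10.0 in 2Runx1. The E9.5 groups overlapped, while the 4 Runx1 libraries at E13.5 were below the single Ctrl library and both liver 2Runx1 libraries were above both Ctrl libraries. Between Ctrl groups, Snai1 fell by 0.65 ± 0.14 from E9.5 to E13.5 (adjusted p = 0.00403) and rose by 0.85 ± 0.14 from E13.5 to liver (adjusted p = 0.000248). Liver and E9.5 Ctrl differed by 0.20 ± 0.12 (adjusted p = 0.126).

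Snai2, the related repressor named Slug, did not share that pattern. It was at 5.37 and 5.57 RPKM in E9.5 Ctrl and 4.71 and 4.08 in E9.5 1Runx1. At E13.5 it was at 16.3 in Ctrl, 13.8 and 15.2 in 1Runx1 and 12.99 and 12.6 in 2Runx1. In liver it was at 14.3 and 12.6 in Ctrl and 15.1 and 17.3 in 2Runx1. Snai2 was thus low in all E9.5 libraries, and the fetal and liver ranges overlapped. The rise from E9.5 to E13.5 Ctrl was 1.42 ± 0.11 (2.97-fold in RPKM, adjusted p = 6.55e-06), a turn opposite to that of Snai1 between the same groups.

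Twist1, a helix-loop-helix factor of mesenchyme, varied 11.2-fold over the 13 libraries. It was at 5.21 and 3.94 RPKM in E9.5 Ctrl, 6.11 and 5.67 in E9.5 1Runx1, 2.18 in E13.5 Ctrl, 2.07 and 2.14 in E13.5 1Runx1, and 1.95 and 1.92 in E13.5 2Runx1. In liver it was at 11.5 and 11.5 in Ctrl and 19.7 and 21.6 in 2Runx1. Every liver library was above every embryonic and fetal library, and both liver 2Runx1 libraries were well above both liver Ctrl libraries. From E9.5 to E13.5 Ctrl it fell by 0.80 ± 0.12 (adjusted p = 0.000482), and from E13.5 to liver Ctrl it rose by 1.97 ± 0.12 (5.26-fold, adjusted p = 9.41e-08).

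Zeb1 and Zeb2, zinc finger repressors with paired finger clusters, were both highest in liver. Zeb1 ranged from 16.0 to 20.9 RPKM over the 9 embryonic and fetal libraries and was at 29.6 and 29.5 in liver Ctrl and 29.7 and 31.1 in liver 2Runx1, the most even of the 10 genes with a 1.95-fold range. Zeb2 ranged from 2.95 to 5.55 RPKM before birth and was at 12.02 and 11.3 in liver Ctrl and 10.3 and 10.5 in liver 2Runx1. From E13.5 to liver Ctrl, Zeb1 rose by 0.61 ± 0.12 (adjusted p = 0.00081) and Zeb2 by 1.24 ± 0.11 (adjusted p = 1.8e-06). Neither was called between E9.5 and E13.5 Ctrl, with differences of 0.15 ± 0.12 and -0.04 ± 0.11. The annotated span of Zeb2 holds the opposite-strand gene Zeb2os, and the library kit does not mark strand.

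Cdh2 (N-cadherin), an adhesion molecule of mesenchyme and neural tissue that endothelium also makes, was abundant before birth and near absent in liver. It was at 26.3 and 26.1 RPKM in E9.5 Ctrl, 24.1 and 24.5 in E9.5 1Runx1, 18.9 in E13.5 Ctrl, 23.1 and 21.8 in E13.5 1Runx1, and 20.6 and 20.9 in E13.5 2Runx1. In liver it was at 0.335 and 0.413 in Ctrl and 0.104 and 0.147 in 2Runx1, which rest on 52 and 66 and on 18 and 23 recovered reads. The fall from E13.5 to liver Ctrl was 50.5-fold in RPKM (-3.86 ± 0.08, adjusted p = 2.9e-11), the largest difference among the 10 genes in that comparison.

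The contractile genes both declined after E9.5 and then separated. Acta2 was at 12.2 and 13.2 RPKM in E9.5 Ctrl, 9.62 and 10.7 in E9.5 1Runx1, 7.20 in E13.5 Ctrl, 2.71 and 6.20 in E13.5 1Runx1, 5.64 and 5.68 in E13.5 2Runx1, 0.231 and 0.377 in liver Ctrl, and 0.933 and 1.06 in liver 2Runx1. Tagln was at 13.3 and 13.1 RPKM in E9.5 Ctrl, 10.6 and 12.9 in E9.5 1Runx1, 3.74 in E13.5 Ctrl, 2.14 and 2.43 in E13.5 1Runx1, 3.31 and 2.86 in E13.5 2Runx1, 4.15 and 3.57 in liver Ctrl, and 4.22 and 3.82 in liver 2Runx1. Acta2 was thus low in all 4 liver libraries, where Tagln was at 3.57 to 4.22, beside 2.14 to 3.74 in the fetus. From E9.5 to E13.5 Ctrl, Tagln fell by 1.58 ± 0.13 (3.53-fold, adjusted p = 8.32e-06) and Acta2 by 0.74 ± 0.28 (adjusted p = 0.049). From E13.5 to liver Ctrl, Acta2 fell by 2.66 ± 0.28 (23.7-fold, adjusted p = 5.78e-06) and Tagln differed by 0.03 ± 0.13 (adjusted p = 0.825). Summed over the 12 mural markers, mean levels were 24.8 RPKM in E9.5 Ctrl, 22.6 in E13.5 Ctrl and 30.2 in liver Ctrl. Most of the liver Ctrl sum came from Abcc9 (12.2) and Kcnj8 (9.31), followed by Rgs5 (4.12) and Mustn1 (3.15). Cspg4, Notch3, Higd1b and Ndufa4l2 were each at 0.207 RPKM or less there, so the sum does not stand for each mural marker. Summed cardiomyocyte markers were at 33.2 to 38.7 RPKM over the E9.5 libraries, 12.5 to 28.8 at E13.5 and 1.45 to 2.47 in liver. Among the mural markers, the smooth muscle genes Myh11, Cnn1 and Lmod1 had group means of at most 0.497, 0.617 and 0.0712 RPKM. The part of other cells in these levels was not tested. The span of Tagln overlaps that of Pcsk7.

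Pdgfrb, the receptor that mural cells use to respond to endothelial PDGF-B, was low in liver and uneven in the fetus. It was at 2.40 and 2.60 RPKM in E9.5 Ctrl, 2.62 and 2.78 in E9.5 1Runx1, 4.05 in E13.5 Ctrl, 9.42 and 2.55 in E13.5 1Runx1, 5.82 and 4.63 in E13.5 2Runx1, 0.652 and 0.520 in liver Ctrl, and 0.464 and 0.344 in liver 2Runx1. The 2 libraries of E13.5 1Runx1 were the highest and the lowest of the fetal libraries. The fall from E13.5 to liver Ctrl was 1.67 ± 0.44 on the log2 scale (-1.67, 6.91-fold, adjusted p = 0.0047).

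Dcn, a small proteoglycan that binds collagen and TGFβ, spanned the widest absolute range. It was at 0.558 and 0.368 RPKM in E9.5 Ctrl and 0.413 and 0.268 in E9.5 1Runx1, from 24 to 48 recovered reads. At E13.5 it was at 12.5 in Ctrl, 5.65 and 10.7 in 1Runx1 and 13.04 and 5.83 in 2Runx1. In liver it was at 62.8 and 63.2 in Ctrl and 26.5 and 30.6 in 2Runx1, so that Dcn had the highest RPKM of the 10 genes in both Ctrl libraries. The stages did not overlap, and the increase over Ctrl groups was 3.21 ± 0.37 from E9.5 to E13.5 (adjusted p = 7.16e-05) and 2.25 ± 0.37 from E13.5 to liver (adjusted p = 0.000214). Markers of other cells moved between stages beside it. Of 10 tested fibroblast and mesenchyme markers, 8 rose from E9.5 to E13.5 (22.3% of all genes) and all 10 fell from E13.5 to liver (38.6%). Of 10 tested stellate markers, 6 rose from E13.5 to liver, against 40.6% of all genes. The part of other cells in the levels of Dcn was not tested.

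In all, 7 of the 10 genes were called between E13.5 and E9.5 Ctrl, against 48.8% of all genes tested, with 2 higher and 5 lower at E13.5, against 22.3% and 26.4%. For liver against E13.5 Ctrl 8 were called, against 79.3%, with 5 higher and 3 lower in liver, against 40.6% and 38.6%. For liver against E9.5 Ctrl 9 were called, against 85.4%, with 5 higher and 4 lower, against 42.7% in each direction. In the 2 liver comparisons these shares are near those of all genes. Between E13.5 and E9.5 Ctrl, the 7 of 10 called and the 5 of 10 lower stand above 48.8% and 26.4%, a gap that was not tested. The 10 genes did not move in 1 direction in any of the 3 comparisons. All 3 comparisons draw on the same Ctrl libraries, and the 2 that use E13.5 rest on its single library, whose spread was taken from the other groups.

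**Figure D2:**
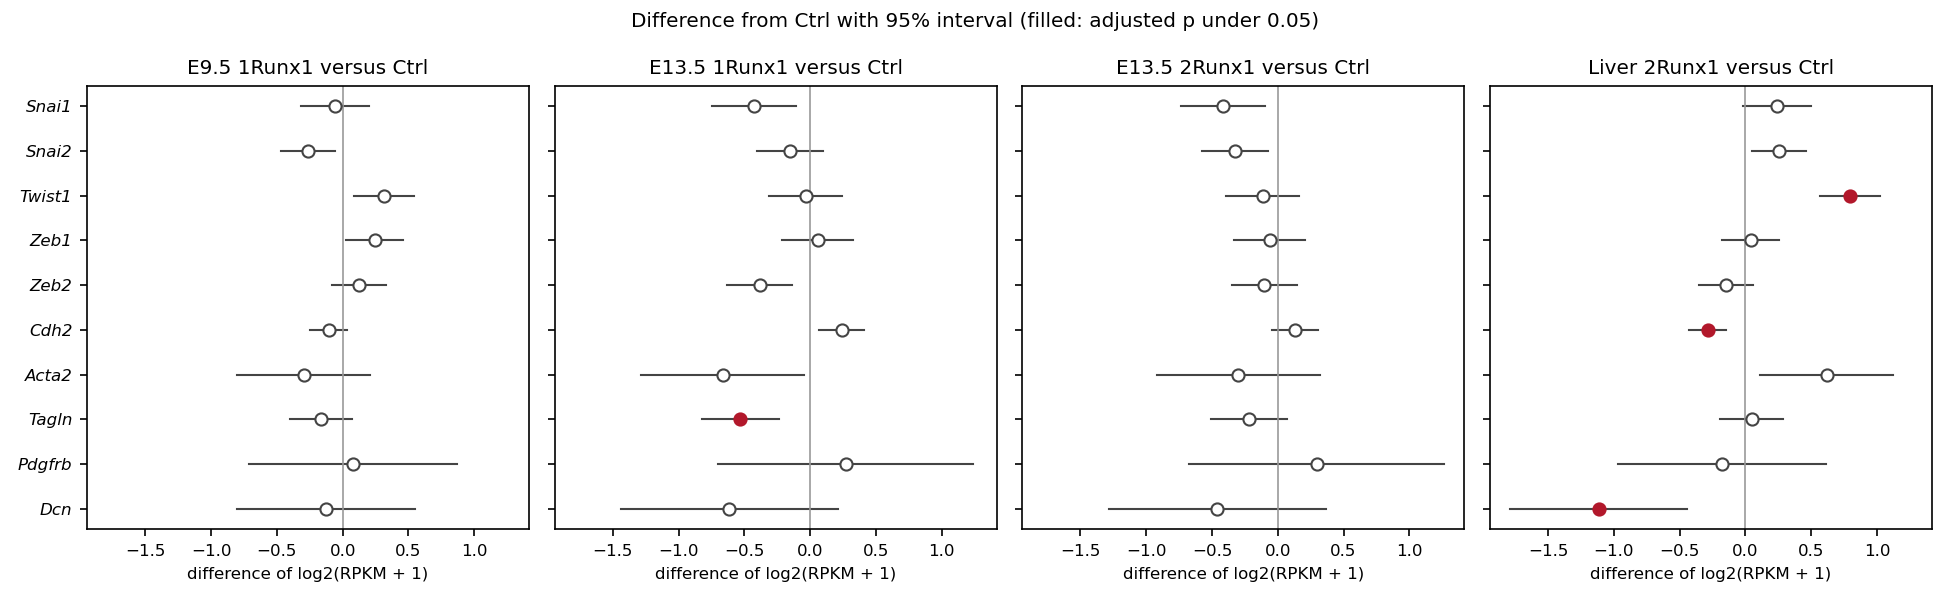
Difference in log2(RPKM + 1) between each Runx1 group and the Ctrl of its stage (horizontal axis) for the 10 genes, with 95% intervals and filled points where the adjusted p was under 0.05. Tagln is filled at E13.5 1Runx1, and Twist1, Cdh2 and Dcn are filled in liver 2Runx1.

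At E9.5, 1Runx1 and Ctrl cells differed in none of the 10 genes by limma, against 1.19% of all genes called, and 3 of the 10 genes had an unadjusted p under 0.05, as did 1508 of all 12546. Those were Twist1 (0.32 ± 0.10, adjusted p = 0.234), Zeb1 (0.24 ± 0.10, adjusted p = 0.364) and Snai2 (-0.26 ± 0.09, adjusted p = 0.281). In each of the 3, both 1Runx1 libraries lay on the same side of both Ctrl libraries. The 95% interval for Twist1 ran from 0.09 to 0.54. The median difference of the 10 genes was -0.08, beside 0.01 for all genes.

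At E13.5, Tagln was lower in 1Runx1 than in Ctrl, by 0.53 ± 0.13 (-0.53, 1.64-fold in RPKM, adjusted p = 0.0319), and it was the only one of the 10 genes called, against 10.4% of all genes (6.34% higher and 4.03% lower). Both 1Runx1 libraries were under the Ctrl library. The call was lost without the library with high mural markers (-0.47 ± 0.15, adjusted p = 0.0873), without either E9.5 Ctrl library, without a filter on low values, with limma-voom, with only the stages compared and with the replicate block. Zeb2 (-0.38 ± 0.11, adjusted p = 0.0562), Cdh2 (0.24 ± 0.08, adjusted p = 0.0773) and Snai1 (-0.43 ± 0.14, adjusted p = 0.0846) did not pass. Without library 1 they were -0.44, 0.20 and -0.46, with adjusted p-values of 0.0649, 0.199 and 0.123. Beside these, 7 of 10 hepatocyte markers, 4 of 9 macrophage markers and 2 of 10 fibroblast markers tested were lower in 1Runx1 (6, 3 and 0 without library 1), and the part of those cells in the Tagln difference was not tested.

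With 2 copies at E13.5, none of the 10 genes was called against Ctrl by limma, where 0.271% of all genes were called, and 2 had an unadjusted p under 0.05, as did 1642 of all 12546. Snai1 differed by -0.41 ± 0.14 (adjusted p = 0.266) and Snai2 by -0.33 ± 0.11 (adjusted p = 0.261). Between 2Runx1 and 1Runx1 none was called by limma either, against 5.33% of all genes, and Zeb2 (0.28 ± 0.09, adjusted p = 0.101) and Tagln (0.31 ± 0.11, adjusted p = 0.117) had unadjusted p-values under 0.05, as did 2952 of all genes. Runx1 itself differed by -0.13 ± 0.10 between the 2 groups (adjusted p = 0.503, 95% interval -0.35 to 0.10). Both comparisons use the same 2Runx1 libraries. Without 1Runx1 library 1, Zeb2 differed between 2Runx1 and 1Runx1 by 0.34 ± 0.11 (adjusted p = 0.105) and Tagln by 0.25 ± 0.13 (adjusted p = 0.285).

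Pdgfrb and Acta2 at E13.5 turned on single libraries. In 1Runx1 library 1, Pdgfrb was at 9.42 RPKM, and the pericyte genes Rgs5, Kcnj8, Ndufa4l2 and Higd1b were at 11.6, 11.8, 4.78 and 2.43 RPKM. The pericyte genes named were chosen from the 12 mural markers after their values were seen, and the others are not given here. In 1Runx1 library 2 the same genes were at 2.18, 2.26, 1.22 and 0.122 RPKM, with Pdgfrb at 2.55. Acta2 went the other way, at 2.71 in library 1 and 6.20 in library 2. With both libraries, 2Runx1 and 1Runx1 differed in Pdgfrb by 0.03 ± 0.36 (adjusted p = 0.979), and the difference was 0.80 without library 1 and -0.75 without library 2. For Acta2, 1Runx1 and Ctrl differed by -0.67 ± 0.28 (adjusted p = 0.15), and the difference was -0.19 without library 1 and -1.14 without library 2. No p-value is given for the values with a library left out, since leaving out either of 2 unlike replicates also takes their disagreement out of the error. Dcn was uneven between replicates as well, at 5.65 and 10.7 RPKM in 1Runx1 libraries 1 and 2 and 13.04 and 5.83 in 2Runx1. Fibroblast markers summed to 117 and 134 RPKM in the same 1Runx1 libraries and to 172 and 129 in 2Runx1. The part of mural cells and fibroblasts in these values was not tested.

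**Figure D3:**
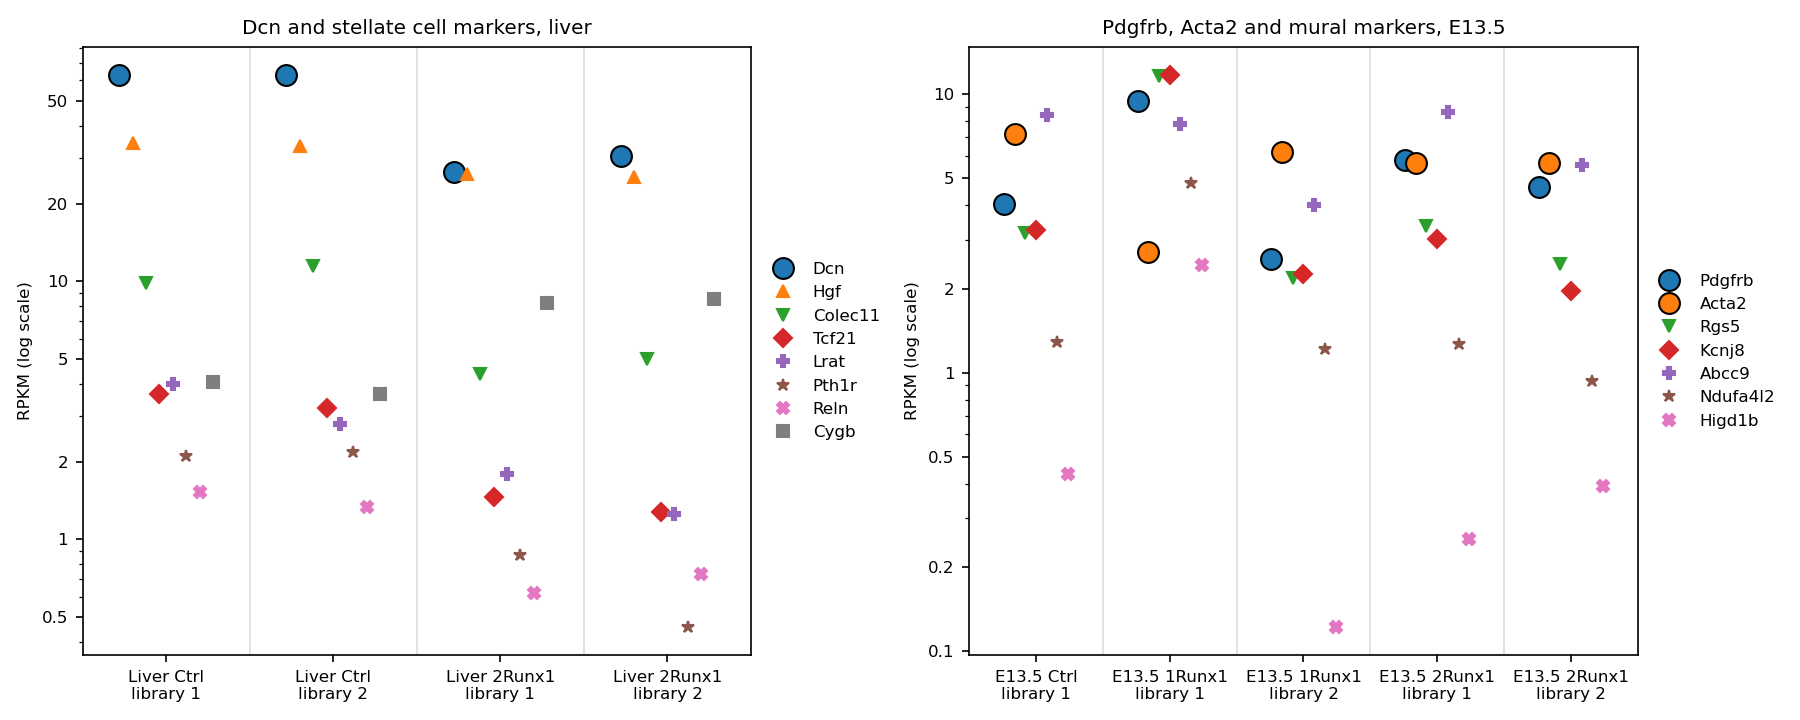
Level (RPKM, log axis) of Dcn and 7 hepatic stellate cell markers in the 4 liver libraries (left), and of Pdgfrb, Acta2 and 5 mural cell markers in the 5 E13.5 libraries (right), with circles for the EndMT genes and points shifted sideways for legibility. Dcn and 6 of the 7 stellate markers are lower in both 2Runx1 libraries while Cygb is higher, and E13.5 1Runx1 library 1 has the highest Pdgfrb, Rgs5, Kcnj8, Ndufa4l2 and Higd1b with the lowest Acta2.

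In liver, 3 of the 10 genes were called between 2Runx1 and Ctrl, near the 25.3% of all genes called there, with 1 higher (17.1% of all genes) and 2 lower (8.14%). Twist1 rose by 0.80 ± 0.10 (1.80-fold in RPKM, adjusted p = 0.000237). Cdh2 fell from its already low level (-0.29 ± 0.06, 2.98-fold in RPKM, adjusted p = 0.00732), and Dcn fell by 1.12 ± 0.30 (2.204-fold, adjusted p = 0.0213). Twist1 stayed called with any 1 library left out, at 0.73 to 0.86. Dcn was not called once any 1 of the 4 liver libraries was left out, where it differed by -1.22 to -1.02 with an adjusted p up to 0.126. Cdh2 was not called without Ctrl library 2 or without 2Runx1 library 1, with an adjusted p up to 0.0522. Its difference was -1.07 with a pseudocount of 0.1 in place of 1 and -1.58 with limma-voom on recovered reads.

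Acta2 was 3.28-fold higher in liver 2Runx1 in RPKM, from 86 and 88 recovered reads against 19 and 32, but did not pass (0.62 ± 0.23, adjusted p = 0.0733). It passed with a pseudocount of 0.1 (1.46, adjusted p = 0.00562) and not with limma-voom (1.73, adjusted p = 0.174). Snai2 (0.25 ± 0.09, adjusted p = 0.0691) and Snai1 (0.24 ± 0.12, adjusted p = 0.172) did not pass either. Zeb1, Zeb2, Tagln and Pdgfrb differed by 0.04, -0.15, 0.05 and -0.18, with adjusted p-values from 0.293 to 0.843. The median difference of the 10 genes was 0.04, beside 0.02 for all genes.

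Stellate markers moved with Dcn in the liver. Of 10 tested stellate markers, 6 fell and 1 rose in 2Runx1, against 8.14% and 17.1% of all genes. The summed level of the stellate markers was 65.3 and 64.2 RPKM in Ctrl and 46.8 and 46.5 in 2Runx1. Hgf alone had a mean of 33.8 RPKM in Ctrl, so the sum does not stand for each stellate marker. Colec11, a collectin, fell by 1.03 ± 0.14 (2.27-fold in RPKM, adjusted p = 0.000298). The transcription factor Tcf21 fell by 0.91 ± 0.11 (2.52-fold, adjusted p = 0.00021), and Pth1r, a parathyroid hormone receptor, by 0.93 ± 0.15 (3.23-fold, adjusted p = 0.00116). Lrat, which esterifies retinol for storage in stellate cells, was at a mean of 3.41 RPKM in Ctrl and 1.53 in 2Runx1 (2.23-fold). Cygb, a globin, rose by 0.95 ± 0.12 (2.17-fold, adjusted p = 0.000203). The summed mural markers were 30.6 and 29.9 RPKM in Ctrl and 18.1 and 16.7 in 2Runx1, where 1 of 7 tested, Mustn1, fell. Of 10 tested fibroblast markers 2 fell, Col3a1 (-0.73 ± 0.17, adjusted p = 0.0101) and Postn (-0.57 ± 0.18, adjusted p = 0.0375). Over the 10 tested stellate markers, Ctrl exceeded 2Runx1 in 9, from 1.23-fold for Des, whose groups overlapped, to 3.23-fold for Pth1r, and Dcn differed by 2.204-fold. The part of stellate cells in the Dcn difference was not tested. Twist1 rose in the same libraries.

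The 2Runx1 effect differed between liver and E13.5 for 4 of the 10 genes, against 11.1% of all genes, with 3 higher in liver (8.2%) and 1 lower (2.89%). Tested as the difference of the effects, it was larger in liver for Twist1 (0.91 ± 0.16, adjusted p = 0.00509), Snai2 (0.58 ± 0.15, adjusted p = 0.0291) and Snai1 (0.65 ± 0.19, adjusted p = 0.0491), and more negative for Cdh2 (-0.42 ± 0.10, adjusted p = 0.0237). For Twist1 the effect was 0.80 in liver and -0.12 at E13.5. For Snai1 it was 0.24 and -0.41, and for Snai2 0.25 and -0.33, with none of these 4 single-stage differences called. Twist1 was called under each of the 18 alternatives tried. Snai1, Snai2 and Cdh2 all lost the call with only the stages compared and with the replicate block. Of the 6 other processings and 12 fits that left out a library, Snai1 was called in 0 and 2, Snai2 in 3 and 9, and Cdh2 in 4 and 10. Snai2 was lost without 2Runx1 library 2 of either stage or without liver Ctrl library 2, and Cdh2 without liver Ctrl library 2 or liver 2Runx1 library 1. The 1Runx1 effect did not differ between E13.5 and E9.5 for any of the 10 genes by limma, against 2.26% of all genes, with Zeb2 (-0.51 ± 0.15, adjusted p = 0.0945) and Cdh2 (0.34 ± 0.10, adjusted p = 0.0978) the 2 at an unadjusted p under 0.05, where 2499 of all genes were. Without E13.5 1Runx1 library 1 these were -0.57 ± 0.16 (adjusted p = 0.0956) and 0.30 ± 0.11 (adjusted p = 0.18).

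Other genes of the programme were taken as whole lists. Over all genes, 1.19% were called at E9.5, 10.4% in E13.5 1Runx1 and 0.271% in E13.5 2Runx1. In liver 2Runx1 25.3% were called, 17.1% higher and 8.14% lower. Of 20 ligands, receptors and SMADs of the TGFβ and BMP pathways, all tested, none was called at E9.5, 1 fell at E13.5 in 1Runx1, none was called in E13.5 2Runx1, and 3 rose and 1 fell in liver 2Runx1. The one that fell at E13.5 was the inhibitory Smad7 (-0.87 ± 0.18, adjusted p = 0.0169, and -1.04 ± 0.19, adjusted p = 0.0129, without library 1). In liver the ligand Tgfb3 rose by 1.48 ± 0.12 (adjusted p = 1.04e-05), more than any of the 10 genes, and the effector Smad3 rose by 0.43 ± 0.10 (adjusted p = 0.00806). The ligand Bmp4 rose by 0.38 ± 0.12 (adjusted p = 0.0446) and the receptor Acvrl1 fell by 0.22 ± 0.07 (adjusted p = 0.0477). The list's median difference in liver was 0.02, as for all genes.

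Among 17 tested mesenchymal effectors outside the 10 genes, 2 rose and 4 fell in liver 2Runx1, and 2 rose and 2 fell in E13.5 1Runx1. Over all genes, 17.1% rose and 8.14% fell in liver 2Runx1, and 6.34% rose and 4.03% fell in E13.5 1Runx1. In liver the intermediate filament gene Vim rose by 0.47 ± 0.05 (adjusted p = 8.41e-05), while the matrix genes Col3a1, Postn and Fn1 fell, the last by 0.38 ± 0.12 (adjusted p = 0.0436). In E13.5 1Runx1 the hyaluronan receptor Cd44 rose by 0.97 ± 0.19 (adjusted p = 0.0131) and the collagen crosslinking enzyme Lox fell by 0.52 ± 0.14 (adjusted p = 0.0399). Without library 1, Cd44 differed by 1.13 ± 0.20 (adjusted p = 0.0113) and Lox was not called (-0.43 ± 0.15, adjusted p = 0.112). Of 9 tested EMT transcription factors outside the 10 genes, Foxc2 rose (0.36 ± 0.08, adjusted p = 0.00681) and Mrtfb fell (-0.36 ± 0.11, adjusted p = 0.0384) in liver 2Runx1, and Foxc2 fell in E13.5 1Runx1 (-0.38 ± 0.10, adjusted p = 0.0352), a call lost without library 1 (-0.42 ± 0.11, adjusted p = 0.0514). None of 4 tested epithelial genes was called in the Runx1 comparisons. Of 16 endothelial markers, 3 rose and 5 fell in liver 2Runx1, among them Erg, an ETS factor of endothelium, which fell by 0.63 ± 0.07 (adjusted p = 0.000118).

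As a description of likeness, the 3 genes outside the 10 with the highest Pearson correlation of log2(RPKM + 1) over the 13 libraries were listed for each gene. The libraries share stage and scaling, so most such values reflect the stages. For Twist1 they were F2r, Pdlim5 and Fhod1 (0.984, 0.983 and 0.981), for Dcn Nfia, Arl4a and Csgalnact1 (0.991, 0.989 and 0.988), and for Cdh2 Fblim1, Cpxm1 and Cd34 (each 0.999). For Pdgfrb they were Acsf3, Pcdh18 and Cd248 (0.980, 0.976 and 0.969). Among the 10 genes themselves, Zeb2 and Twist1 were most alike of the factors (0.914), while Snai1 and Snai2 were not alike (-0.218) and Twist1 and Pdgfrb ran in opposite directions (-0.916).

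ATAC-seq, which reads out open chromatin, gave 1 peak list for each of the 7 groups from 2 libraries combined, so that peaks have no replicate check and no test was made. The embryonic and fetal lists held 80857 to 100268 peaks and the liver lists 39019 and 39469. RefSeq promoter entries (GRCm38.p6, the build the submitters' notes name as GRCm38) were found for 4 of the 10 genes, Snai1, Twist1, Zeb2 and Acta2. Within 1000 bases of those starts, all 4 had a peak in both E9.5 lists and in E13.5 Ctrl and 1Runx1, where 65.2% to 66.0% of all genes with an entry had one. In E13.5 2Runx1 (64.3% of all genes) and in both liver lists (50.6%), 3 of 4 had one, and Acta2 did not. Snai2, Zeb1, Cdh2, Tagln, Pdgfrb and Dcn had no promoter entry and were examined over the whole gene.

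**Figure D4:**
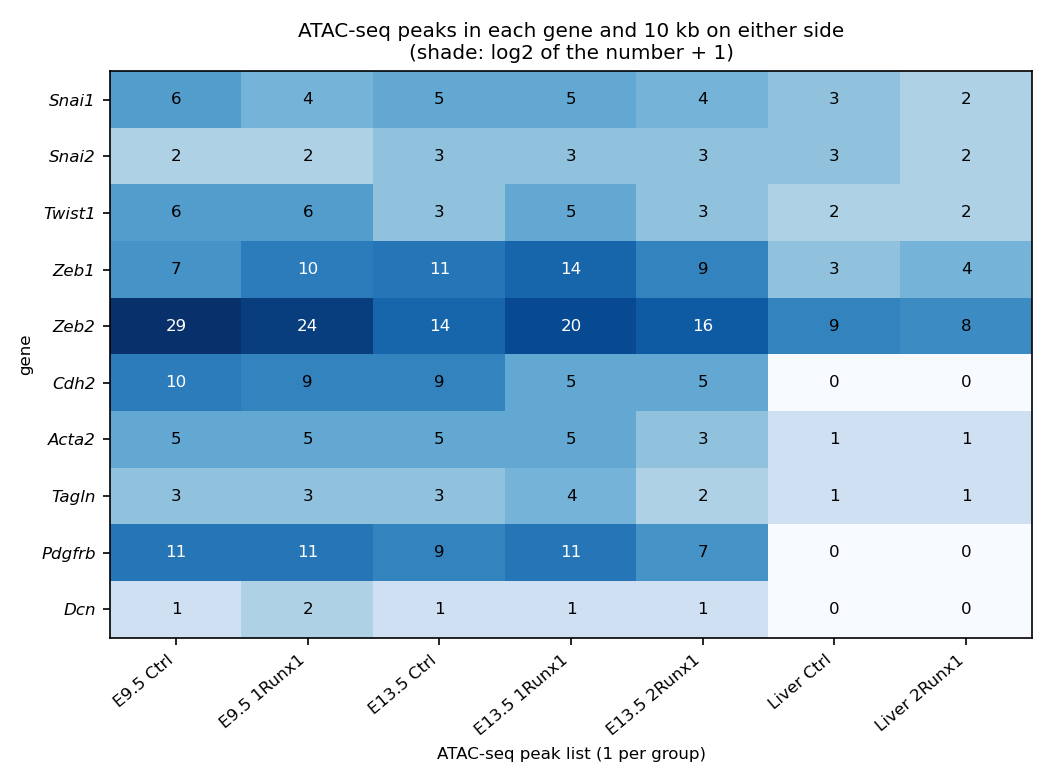
Number of ATAC-seq peaks in the span of each of the 10 genes and 10 kb on either side (rows) in each of the 7 peak lists (columns), with the shade following the number. Every gene has a peak in each list before birth, while Cdh2, Pdgfrb and Dcn have 0 in both liver lists. Of all genes, 19.5% to 21.5% have none in the lists before birth, and 33.8% and 33.0% have none in liver Ctrl and 2Runx1.

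The start of Snai1 was among the strongest peaks and that of Twist1 was open in every group. The 250 bases before each start are shown because they were covered by peaks in all 7 ATAC-seq lists, whole for Snai1 in each. Capitals mark matches to motifs searched on both strands, namely TGTGGT and TGCGGT for RUNX factors (present in 14.0% and 5.099% of 32851 promoters of this length), CAGGTG, the E-box bound by SNAI and ZEB factors (17.2%), and the CArG box of serum response factor (1.47%, or 8.59% with at most 1 of its 6 centre bases not A or T).
Snai1, chr2:167537945-167538194, plus strand, GRCm38.p6: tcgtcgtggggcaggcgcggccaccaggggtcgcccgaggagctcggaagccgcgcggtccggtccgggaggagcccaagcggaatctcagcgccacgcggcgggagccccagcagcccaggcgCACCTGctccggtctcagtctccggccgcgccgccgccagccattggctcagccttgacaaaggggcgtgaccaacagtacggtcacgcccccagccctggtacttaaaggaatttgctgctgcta
Twist1, chr12:33957421-33957670, plus strand, GRCm38.p6: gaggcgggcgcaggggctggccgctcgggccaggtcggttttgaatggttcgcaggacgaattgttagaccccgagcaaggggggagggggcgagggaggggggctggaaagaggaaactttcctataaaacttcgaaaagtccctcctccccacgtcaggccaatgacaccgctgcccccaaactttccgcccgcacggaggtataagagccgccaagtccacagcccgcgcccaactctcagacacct
In Snai1 the match is an E-box read on the minus strand at positions -126 to -121 from the start site. Twist1 held none of these letters in this window. The Snai1 peak had a −log10 q of 378 to 452 before birth, the 98.3rd to 98.9th percentile of its lists, and of 36.9 and 34.1 in liver Ctrl and 2Runx1, the 87.4th and 88.9th. In liver 2Runx1, where Twist1 RNA was higher, the peak at its start covered 33 of the 250 bases, against all 250 in liver Ctrl, and its −log10 q was 9.70 against 15.5.

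Acta2 was the one gene of the 4 whose promoter peak was lost across lists. At E9.5 a peak covered all 250 bases before its start (−log10 q of 8.08 in Ctrl and 11.5 in 1Runx1), at E13.5 it covered 150 bases in Ctrl (2.77) and 158 in 1Runx1 (4.97), and in E13.5 2Runx1 and both liver lists there was none. With only peaks of −log10 q of at least 5, the E13.5 Ctrl and 1Runx1 peaks were lost too. Both CArG-like matches in these bases are shown in capitals with 10 bases on each side, since serum response factor is known to act on this gene through such boxes and the peaks differ over them.
Acta2, chr19:34255438-34255467, minus strand, GRCm38.p6: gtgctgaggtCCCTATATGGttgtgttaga
Acta2, chr19:34255388-34255417, minus strand, GRCm38.p6: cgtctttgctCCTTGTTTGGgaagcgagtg
They lie at -84 to -75 and -34 to -25 from this start, within the span RefSeq gives for the gene. Both were inside a peak in the E9.5 lists and outside any peak in all E13.5 and liver lists. At E13.5 the promoter peak began at base 34255466 in 1Runx1, within the bases printed beside the first box, and at 34255474 in Ctrl. In those 2 lists, in or out thus rests on where the edge of a peak without replicate check was called. The RNA of Acta2 fell over the same stages, from 12.2 and 13.2 RPKM in E9.5 Ctrl to 0.231 and 0.377 in liver Ctrl.

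Over whole genes and 10 kb on either side, all 10 genes had at least 1 ATAC-seq peak in each list before birth, where 19.5% to 21.5% of all genes had none. In the liver Ctrl and 2Runx1 lists, 33.8% and 33.0% of all genes had none. Zeb2 had 14 to 29 peaks before birth and 9 and 8 in liver. Cdh2 had 5 to 10 and Pdgfrb 7 to 11 before birth, and neither had any in the liver lists, where their RNA was also low. Dcn (chromosome 10, 97479500 to 97518163) had 1 or 2 peaks before birth and none in either liver list, although its RNA was then at its highest. Of 1467 genes at least as high as Dcn in liver Ctrl RNA, 35 (2.39%) had no peak by this count, and of 10862 genes at 1 RPKM or more, 523 (4.81%) had none. All 16 endothelial markers had a peak there. Of the markers at 1 RPKM or more, 4 of 9 stellate, 3 of 5 mural, 2 of 6 fibroblast, 5 of 9 hepatocyte and 7 of 9 macrophage markers had no peak in liver Ctrl. RNA and ATAC-seq came from separate libraries, and the part of other cells in Dcn RNA was not tested.

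H3K4me1, a histone mark of enhancers and promoter flanks, was measured at E13.5 in Ctrl and 2Runx1. The labels of the 2Runx1 input and of a ChIP replicate seem swapped, so the 2Runx1 regions are assigned with doubt. The lists held 48795 regions in Ctrl and 88344 in 2Runx1. Within 1000 bases of the start, Snai1 and Twist1 had the mark in Ctrl (2 of 4, against 41.7% of all genes with an entry) and Snai1, Twist1 and Zeb2 in 2Runx1 (3 of 4, against 59.8%). Over the 10 genes and 10 kb on either side, 49 regions were found only in 2Runx1 and 5 only in Ctrl. Of the 10 genes, 8 had a region only in 2Runx1 (64.4% of all genes) and 4 only in Ctrl (14.0%). These shares take no account of gene span, and a longer gene has a wider window. The 4 with a region only in Ctrl were Zeb1, Zeb2, Cdh2 and Pdgfrb, the longest of the 10 genes at 39941 to 220370 bases. The median span over all genes was 14808 bases. Zeb1 went from 5 to 23 regions and Zeb2 from 7 to 21, Tagln from 0 to 2, and Dcn had none in either list. The 2Runx1 list is longer over the genome as well, and no replicate check of these differences exists.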

How the data were processed

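The members and gene lists were chosen with earlier results of these data known. RNA-seq covered 13 libraries, ATAC-seq 14 and H3K4me1 ChIP-seq 4 with 2 inputs. The authors deposited 1 RPKM table, made per the submitters' processing notes with STAR 2.7.3a, featureCounts (Subread 2.0.0) and edgeR after trimming. The labels' protocol names a transposase-based kit that does not mark strand. Peak lists follow MACS2 2.1.4, per the submitters' processing notes, 1 list per group with replicates combined. The authors' fold enrichment (a ratio) and −log10 q values per peak were used only to describe and filter peaks, and the deposited display scores were not used.

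RPKM steps gave back whole reads for 100% of 20720 genes (tolerance 0.001 reads). The deposited values hold a scaling factor of 0.83 to 1.13 beyond the read total, lowest in liver, which bears on comparisons of stages. Log2(RPKM + 1) of the 12546 genes that reached 1 RPKM in 2 or more libraries was fitted with limma 3.58.1 (R 4.3.3), 7 group means and an intensity trend, with 6 residual, 4.3 prior and 10.3 total degrees of freedom. Tests are two-sided, adjusted over all genes tested for each of 10 comparisons. The scripts were tested on simulated data. Read recovery, figures and peak overlaps used Python 3.11.15. Alternatives were a pseudocount of 0.1, no filter, quantile normalization, limma-voom on recovered reads, only the stages compared, a replicate block, and leaving out each library, and for peaks −log10 q of at least 5, a window of 250 bases and 100 bases covered. Every library has the 10 genes described. From each other list at most 4 called genes per comparison with the largest difference are named, and other marker genes printed were chosen after their values were seen. The authors' BED coordinates were converted to 1-based.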

Additional observations from a re-analysis of the deposited data

Results flagged for a closer look

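For 4 of the 10 genes the effect of 2Runx1 differed between liver and E13.5, by the interaction term in limma with Benjamini-Hochberg adjustment over all genes. The liver effect minus the E13.5 effect on the log2(RPKM + 1) scale was 0.65 for Snai1 (adjusted p = 0.0491), 0.58 for Snai2 (adjusted p = 0.0291), 0.91 for Twist1 (adjusted p = 0.00509) and -0.42 for Cdh2 (adjusted p = 0.0237). The calls for Snai1, Snai2 and Cdh2 were lost with only the stages compared and with the replicate block, Snai1 was called under none of the 6 other processings, and Twist1 was called under all 18 alternatives. The E13.5 effect rests on 1 Ctrl library in each case.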

How the results depend on the processing

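For E13.5 1Runx1 against Ctrl, 1 of the 10 genes was called, and 0 without a filter on low values, 2 with limma-voom on recovered reads, 0 with only the stages compared, 0 with the replicate block, and 0 to 3 when a library was left out. For 2Runx1 against 1Runx1 at E13.5, leaving out a library gave 0 to 2 called, and Pdgfrb (0.03) reversed to -0.75 without E13.5 1Runx1 replicate 2 and was 0.80 without replicate 1. For liver 2Runx1 against Ctrl, with 3 called, leaving out a library gave 1 to 4, the 1 without Ctrl replicate 2 or 2Runx1 replicate 1. For the 1Runx1 effect at E13.5 against E9.5, with 0 called, limma-voom gave 1 and leaving out a library 0 to 2. For the 2Runx1 effect in liver against E13.5, with 4 called, no filter gave 2, only the stages compared 1, the replicate block 1, and leaving out a library 2 to 4. The cause of these shifts was not tested, and a group left with 1 library takes its spread from the others. The gene lists at E13.5 without 1Runx1 replicate 1 were counted as an alternative chosen after seeing the data. E13.5 Ctrl could not be left out of its own comparisons. With −log10 q of at least 5, H3K4me1 at the 4 starts went to 0 of 4 in Ctrl and 0 of 4 in 2Runx1. That filter leaves 0 regions in the whole Ctrl list (highest −log10 q 4.39), so the Ctrl count could not differ from 0. In 2Runx1 it leaves 1428 of 88344 regions and the mark at 3.0% of all genes with an entry. With a window of 250 bases, H3K4me1 at the 4 starts went to 1 in Ctrl. Over all genes, only the stages compared left 37 of 149 calls at E9.5, 5 of 1300 for E13.5 1Runx1, 0 of 34 for E13.5 2Runx1, 9 of 669 for 2Runx1 against 1Runx1, 49 of 284 and 851 of 1392 for the 2 differences of effects. The replicate block gave 87, 457, 15 and 288 for the first 4 and 76 for the 1Runx1 difference of effects. For E13.5 2Runx1, a pseudocount of 0.1 gave 18, no filter 149 and limma-voom 54, and for the 1Runx1 difference of effects a pseudocount of 0.1 gave 147. Replicate numbers did not pair samples: deviations correlated at -0.0611, -0.0468 and 0.107 at E9.5, E13.5 and liver, over 1 pair of groups each. Over single genes, 1740 values kept their call status, 58 lost a call, 30 gained one, 11 moved and 1 reversed. The 1740 include any uncalled values that changed sign by less than 1 standard error. The 11 are uncalled values that changed sign by more. Depth limits Cdh2, Acta2 and Pdgfrb in liver and Dcn at E9.5, which rest on 18 to 113 reads a library.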
